A study of Mus musculus with 8 samples.

Results

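Collagen chain genes were taken as every probe set of the array whose single gene symbol reads Col, a number, a and a number. There were 82 such probe sets among 45037, and they read 42 collagen genes among 18193 genes with a probe set of their own. Of these, 27 genes had more than 1 probe set, up to 4. A gene was read from its brightest probe set over all arrays, and its other probe sets are given where 1 of the 2 was called and the other was not. By the form of their triple helix, 11 genes were fibrillar, 8 belonged to basement membranes, 9 were fibril-associated and 14 were other chains.

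RNA came from mouse gonads at embryonic day 13, and each of 4 groups had 2 Affymetrix mouse expression arrays. Sertoli cells, the XY supporting cells that enclose germ cells in testis cords, were EGFP-positive cells sorted from XY gonads, about 22000 per sample. Pre-granulosa cells, their XX counterparts, were EGFP-positive cells sorted from XX gonads, about 30000 per sample. Whole testes and whole ovaries came from 4 pooled gonads per sample. All samples carried the transgene of the C57BL6/J line Tg92, and the labels do not name the promoter that drives EGFP or say whether both samples of any group were taken from different animals. The p-values therefore rest on the spread between these samples, which may be technical. Values are log2 signals as deposited, and one probe set's level was not set against another's.

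Collagens are secreted proteins made of chains that wind into a triple helix. Fibrillar collagens assemble into the fibrils of connective tissue and cartilage, fibril-associated collagens sit on the surface of those fibrils, and type IV collagen forms the sheet-like network of basement membranes. In the fetal testis, Sertoli cells and the peritubular cells around them build a basement membrane that encloses the cords, while mesenchymal cells lay down interstitial collagen. Other chains form beaded filaments, anchoring fibrils or hexagonal lattices, or stay in the plasma membrane.

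Markers of the sorted cells were read first. Of 5 Sertoli markers, 4 were higher in Sertoli than in pre-granulosa cells, such as Dhh, the hedgehog ligand of Sertoli cells (6.49 ± 0.38, log2 difference ± SE), and of 5 pre-granulosa markers 2 were lower, such as the transcription factor Foxl2 (-4.01 ± 0.27). Pre-granulosa cells also had Sertoli marker signal: Sox9, a transcription factor of Sertoli cell fate, read 11.53 and 11.95 in Sertoli cells, 9.46 and 10.56 in pre-granulosa samples, 11.41 and 11.37 in testes and 8.07 and 8.41 in ovaries. The Sox9 difference of 2.15 ± 0.37 for pre-granulosa minus ovary was not called (adjusted p = 0.0139), nor was that of Cst9, another Sertoli marker (2.42 ± 0.53, 0.0260). Over the 5 Sertoli markers the median of this difference was 0.19, from -0.67 to 2.42, with 4 above 0 and 1 below. The 5 Sertoli markers summed (unlogged signals) to 18408 and 19783 in Sertoli cells, 968 and 2225 in pre-granulosa samples, 13187 and 12541 in testes and 482 and 591 in ovaries. All 5 germ cell markers were lower in both sorted cell types than in the gonad of the same sex. Pre-granulosa replicate 1 stood apart in RNA quality, with a 3′ over 5′ excess of 3.08 log2 units for actin and 3.68 for Gapdh against 1.70 and 1.24 in replicate 2, and calls on brightest probe sets that rest on it are given with and without it. Between replicates, collagen probe sets varied by a standard deviation (root mean square) of 0.414 in Sertoli cells, 0.687 in pre-granulosa cells, 0.206 in testes and 0.359 in ovaries. With 2 arrays per group, their number limits the precision.

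Between the sorted cell types, the fibrillar chains Col2a1 and Col27a1 and all 3 chains of type IX collagen were higher in Sertoli than in pre-granulosa cells, together with the fibril-associated chain Col14a1 and the basement membrane chain Col18a1, while the fibril-associated chain Col12a1 was lower. In bulk samples such as these, fewer cells of a type and less RNA per cell cannot be told apart. In all, 8 of 42 collagen genes (19.0%) differed at an adjusted p of 0.01, against 2.67% of all genes. Of these, 7 were higher, against 1.62% of all genes, and 1 was lower, against 1.05%. By class, 2 of 11 fibrillar, 1 of 8 basement membrane, 5 of 9 fibril-associated and 0 of 14 other genes differed. The median over the 42 genes was 0.10 and over all genes 0.04. By probe set, 11 of 82 differed (13.4%, against 1.81% of all probe sets).

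**Figure D1:**
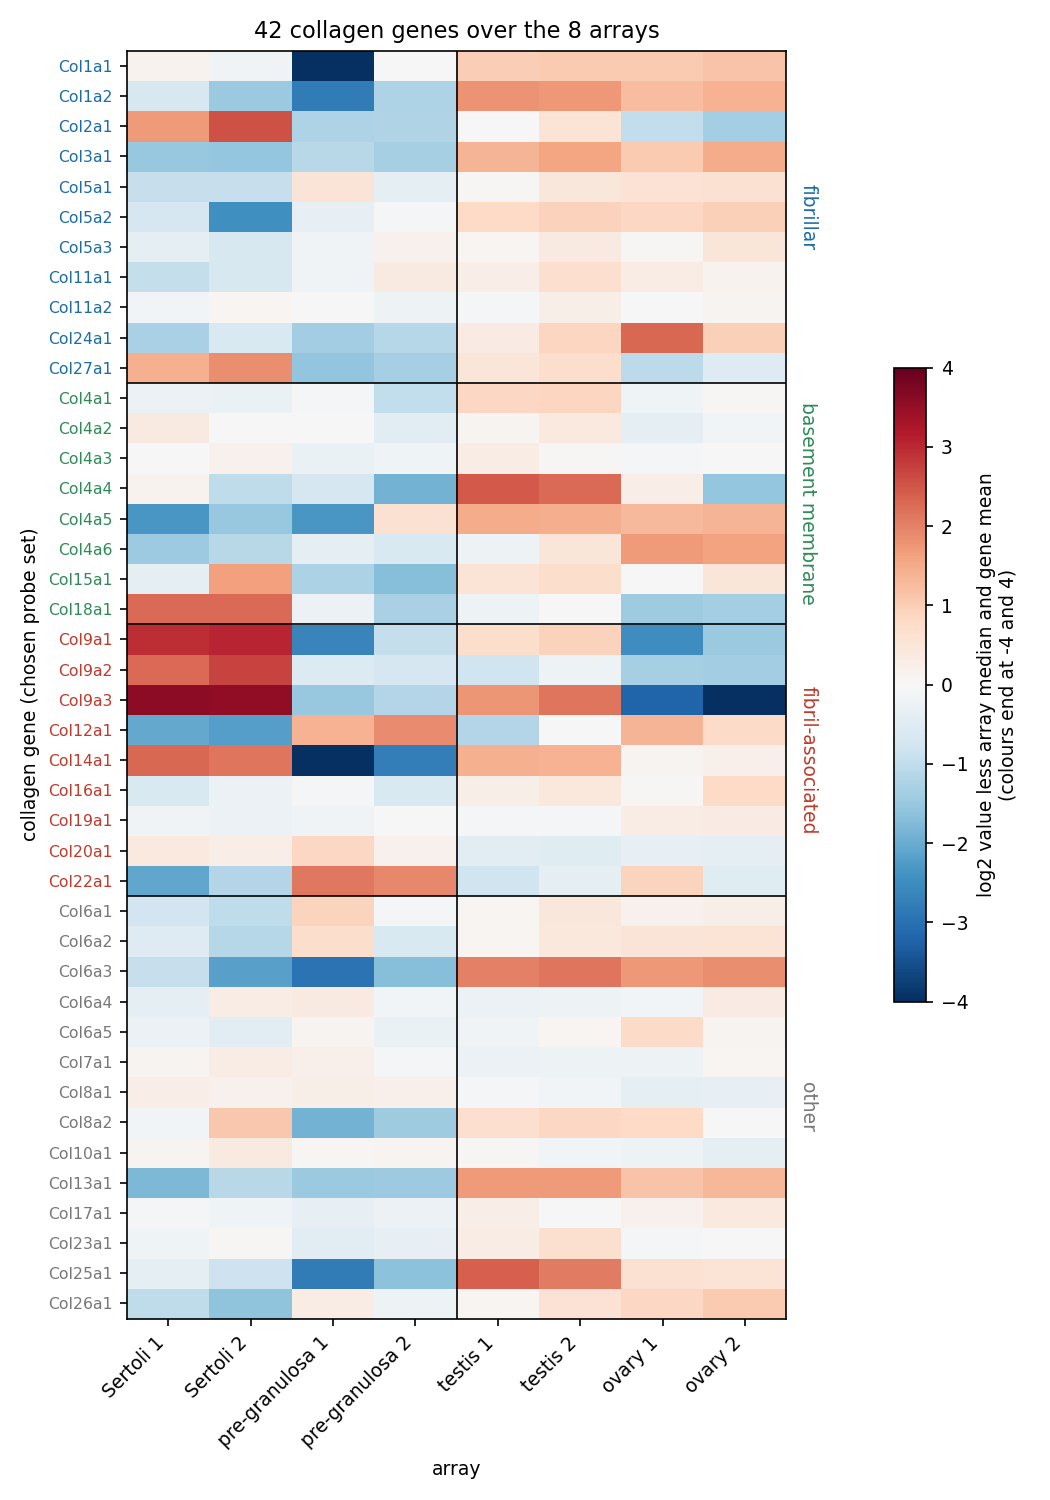
Heat map of the 42 collagen genes (rows, by class) over the 8 arrays (columns). Colour is the log2 value less the array's median and the gene's mean over the arrays, red for higher and blue for lower. Col9a1, Col9a2, Col9a3, Col2a1, Col27a1 and Col18a1 are reddest in the 2 Sertoli arrays, Col22a1 in the 2 pre-granulosa arrays, and Col3a1, Col6a3 and Col13a1 are red in the 4 gonad arrays and blue in the 4 sorted-cell arrays.

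Type IX collagen is a trimer of 3 different chains that coats type II fibrils in cartilage. Col9a1 read 11.19 and 11.26 in the Sertoli arrays and 5.62 and 7.29 in the pre-granulosa arrays, and 9.33 and 9.53 in testes and 6.13 and 7.16 in ovaries. Col9a2 read 9.34 and 9.75 in Sertoli cells and 6.55 and 6.40 in pre-granulosa cells, against 6.65 and 7.24 in testes and 6.12 and 6.09 in ovaries. For both genes the Sertoli arrays were the highest of all and the pre-granulosa and ovary arrays stayed low. The difference, Sertoli minus pre-granulosa, was 4.77 ± 0.57 for Col9a1 (27.3-fold, adjusted p = 0.00852) and 3.07 ± 0.24 for Col9a2 (8.39-fold, adjusted p = 0.00252). A dimmer Col9a1 probe set read 4.99 and 5.60 in Sertoli cells and at background in the 3 other groups, and was not called (at least 1.42-fold, adjusted p = 0.0600). Background here means a level of 4.78 or less on both arrays, a limit set as the top reading among 9 probe sets for Eif2s3y, Uty and Kdm5d, all Y-linked, on arrays of XX samples. Col9a3 read 12.70 and 12.64 in Sertoli cells, 7.61 and 7.96 in pre-granulosa samples, 11.27 and 11.64 in testes and 6.29 and 4.38 in ovaries on its brightest probe set. On that probe set the ovary replicates were far apart, and the difference between sorted cells was 4.89 ± 0.58 (29.6-fold, adjusted p = 0.00810). Its second probe set was tighter, with 12.68 and 12.92 in Sertoli cells, 7.14 and 7.22 in pre-granulosa samples, 10.04 and 10.41 in testes and 6.96 and 7.08 in ovaries. There the difference was 5.62 ± 0.18 (adjusted p = 0.000461), the smallest adjusted p among the collagen probe sets in this comparison. Another, dim Col9a3 probe set was at background in all groups but Sertoli cells, where 1 of 2 arrays was above it, and was not called (adjusted p = 0.546). Without pre-granulosa replicate 1, Col9a1 differed by 3.94 (adjusted p = 0.00913), Col9a2 by 3.14 (0.00730), the brightest Col9a3 probe set by 4.71 (0.0236, no longer called) and the second by 5.58 (0.00216). On their brightest probe sets Col9a1 and Col9a3 were higher in pre-granulosa replicate 2, as was the Sertoli marker sum, while Col9a2 was lower there. The part of Sertoli cells in the pre-granulosa values was not tested.

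Col2a1, the chain of type II fibrils that type IX collagen coats, read 8.05 and 8.88 in Sertoli cells, 5.14 and 5.16 in pre-granulosa samples, 6.74 and 7.29 in testes and 5.75 and 5.42 in ovaries. Sertoli cells were 9.97-fold higher than pre-granulosa cells (3.32 ± 0.32, adjusted p = 0.00472). Col27a1, another fibrillar chain found in cartilage, read 9.43 and 9.85 in Sertoli cells, 6.48 and 6.70 in pre-granulosa samples, 8.90 and 9.09 in testes and 7.37 and 7.92 in ovaries, a difference of 3.05 ± 0.25 between the sorted cells (adjusted p = 0.00271). In both genes no array of Sertoli cells overlapped a pre-granulosa array, as was so for 43.3% of all genes. The second Col27a1 probe set read 8.92 and 8.72 in Sertoli cells and 7.80 and 7.25 in pre-granulosa cells and missed the threshold (1.30 ± 0.21, adjusted p = 0.0226). Without pre-granulosa replicate 1, Col27a1 differed by 2.94 (adjusted p = 0.00863), its second probe set by 1.57 (0.00939, now called) and Col2a1 by 3.31 (0.0137, no longer called). The type XI chains, which join type II in cartilage fibrils, had other values: Col11a1 differed by -0.93 ± 0.23 (adjusted p = 0.0828) and Col11a2 by 0.07 ± 0.17 (0.909). Of 5 chondrocyte markers that are not collagens, 0 were called by limma in this comparison. An unadjusted p under 0.05 was found for 2 of the 5, against 4073 of all 18193 genes. Differences of the 5 markers ran from -2.14 to 2.10, with 2 above 0, 3 below 0 and a median of -0.0005. The lowest was that of Acan, the aggrecan core protein of cartilage, which read 7.99 and 6.03 in Sertoli cells and 9.84 and 8.45 in pre-granulosa cells. The summed level of the 5 markers (sum of unlogged signals) was 748 and 385 in Sertoli cells and 1166 and 712 in pre-granulosa cells, and 1 of the 5 read at background in each group.

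Promoter windows are shown for those chains called between the sorted cells that had one. RefSeq windows of 300 bases on GRCm38.p6, from 250 bases before to 50 after a start site, were matched for 33 of the 42 genes, with 36 windows in all. Col2a1, Col9a3, Col12a1 and Col14a1 had none in the table used here. Capitals mark a match to any of 3 motifs searched on both strands, AACAAT (known as a SOX factor site), AGATAA, a site of GATA factors, and AAGGTCA, a site of the nuclear receptor NR5A1.
Col9a1, chr1:24177360-24177659, plus strand: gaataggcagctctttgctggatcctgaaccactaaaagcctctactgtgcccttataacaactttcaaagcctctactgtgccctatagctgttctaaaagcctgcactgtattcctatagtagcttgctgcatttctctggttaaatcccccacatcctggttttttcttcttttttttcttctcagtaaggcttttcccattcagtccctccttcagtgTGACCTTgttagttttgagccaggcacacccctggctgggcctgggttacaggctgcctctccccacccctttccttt
Col9a2, chr4:121039316-121039615, plus strand: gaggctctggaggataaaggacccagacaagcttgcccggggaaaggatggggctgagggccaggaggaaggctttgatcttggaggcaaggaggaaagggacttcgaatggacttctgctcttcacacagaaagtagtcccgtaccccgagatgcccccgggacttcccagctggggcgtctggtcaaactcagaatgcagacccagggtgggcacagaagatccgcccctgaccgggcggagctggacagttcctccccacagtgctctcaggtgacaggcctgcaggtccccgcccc
Col27a1, chr4:63215162-63215461, plus strand: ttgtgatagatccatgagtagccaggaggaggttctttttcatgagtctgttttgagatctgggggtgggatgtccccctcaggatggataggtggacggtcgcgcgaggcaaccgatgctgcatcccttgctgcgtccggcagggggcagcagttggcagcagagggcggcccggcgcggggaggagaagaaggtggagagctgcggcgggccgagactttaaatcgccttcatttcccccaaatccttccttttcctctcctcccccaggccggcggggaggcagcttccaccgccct
Col18a1, chr10:77166481-77166780, minus strand: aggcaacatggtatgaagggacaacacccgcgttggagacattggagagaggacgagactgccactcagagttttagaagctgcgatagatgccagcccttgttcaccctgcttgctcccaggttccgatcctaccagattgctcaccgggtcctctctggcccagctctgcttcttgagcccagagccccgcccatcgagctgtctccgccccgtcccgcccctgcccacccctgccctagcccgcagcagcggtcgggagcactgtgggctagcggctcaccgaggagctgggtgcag
The 1 match among these 4 windows was AAGGTCA on the opposite strand of Col9a1, from 28 bases before the start site. Over the 36 collagen windows, AACAAT was found in 1, AGATAA in 2 and AAGGTCA in 5, and over all 32851 windows in 10.7%, 11.2% and 4.72%. A match is only a run of letters. GC content was 47.3% in the Col9a1 window, 61.7% in those of Col9a2 and Col27a1 and 63.3% in that of Col18a1, against a median of 52.7% over all windows and 59.8% over the collagen windows.

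Other fibril-associated chains went both ways. Col14a1, which binds fibrils of type I collagen, read 10.39 and 10.23 in Sertoli cells and 3.33 and 5.33 in pre-granulosa cells, with 9.92 and 9.85 in testes and 8.59 and 8.71 in ovaries. The pre-granulosa arrays were the only low ones, and the difference of 5.98 ± 0.58 (63.2-fold, adjusted p = 0.00465) was the largest in size of any collagen gene between the sorted cells. A second Col14a1 probe set was called too (3.38 ± 0.27, adjusted p = 0.00263), while another, dim one was not (0.44 ± 0.16, 0.221). Without pre-granulosa replicate 1 the brightest probe set differed by 4.98 (adjusted p = 0.00191). Replicate 2, with the higher Sertoli marker sum, had the higher Col14a1 level of the pre-granulosa arrays on the brightest probe set only. The second probe set read 5.03 in replicate 1 and 4.64 in replicate 2, and the dim one 4.98 and 4.80. Col12a1, a close relative of Col14a1 that also binds type I fibrils, ran the opposite way, with 3.66 and 3.50 in Sertoli cells, 7.14 and 7.63 in pre-granulosa samples, 4.94 and 6.09 in testes and 7.47 and 6.90 in ovaries. Both Sertoli arrays lay at background. The Col12a1 level of Sertoli cells was therefore lower by at least 6.06-fold (adjusted p = 0.00642). Its 3 other probe sets were not called. Of these, 2 were at background in all groups and 1 only in Sertoli cells and testes (at least 1.83-fold lower in Sertoli cells). When pre-granulosa replicate 1 was left out, the brightest Col12a1 probe set was not called either (-4.05, adjusted p = 0.0134).

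Col22a1, a chain known from tissue junctions such as muscle to tendon, read 5.07 and 5.95 in Sertoli cells, 9.28 and 9.09 in pre-granulosa samples, 6.77 and 7.15 in testes and 8.43 and 7.09 in ovaries. Its difference of -3.68 ± 0.49 narrowly missed the threshold (adjusted p = 0.0121), and a second probe set gave -2.81 ± 0.55 (0.0415). Both pre-granulosa arrays were above every other array, and both Sertoli arrays below. Differences of the other fibril-associated genes between the sorted cells were -0.12 for Col16a1 and -0.20 for Col20a1, neither called, and Col19a1 was at background in both cell types. Col19a1 is the neighbour of Col9a1 on chromosome 1, and Col9a1 differed by 4.77.

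**Figure D2:**
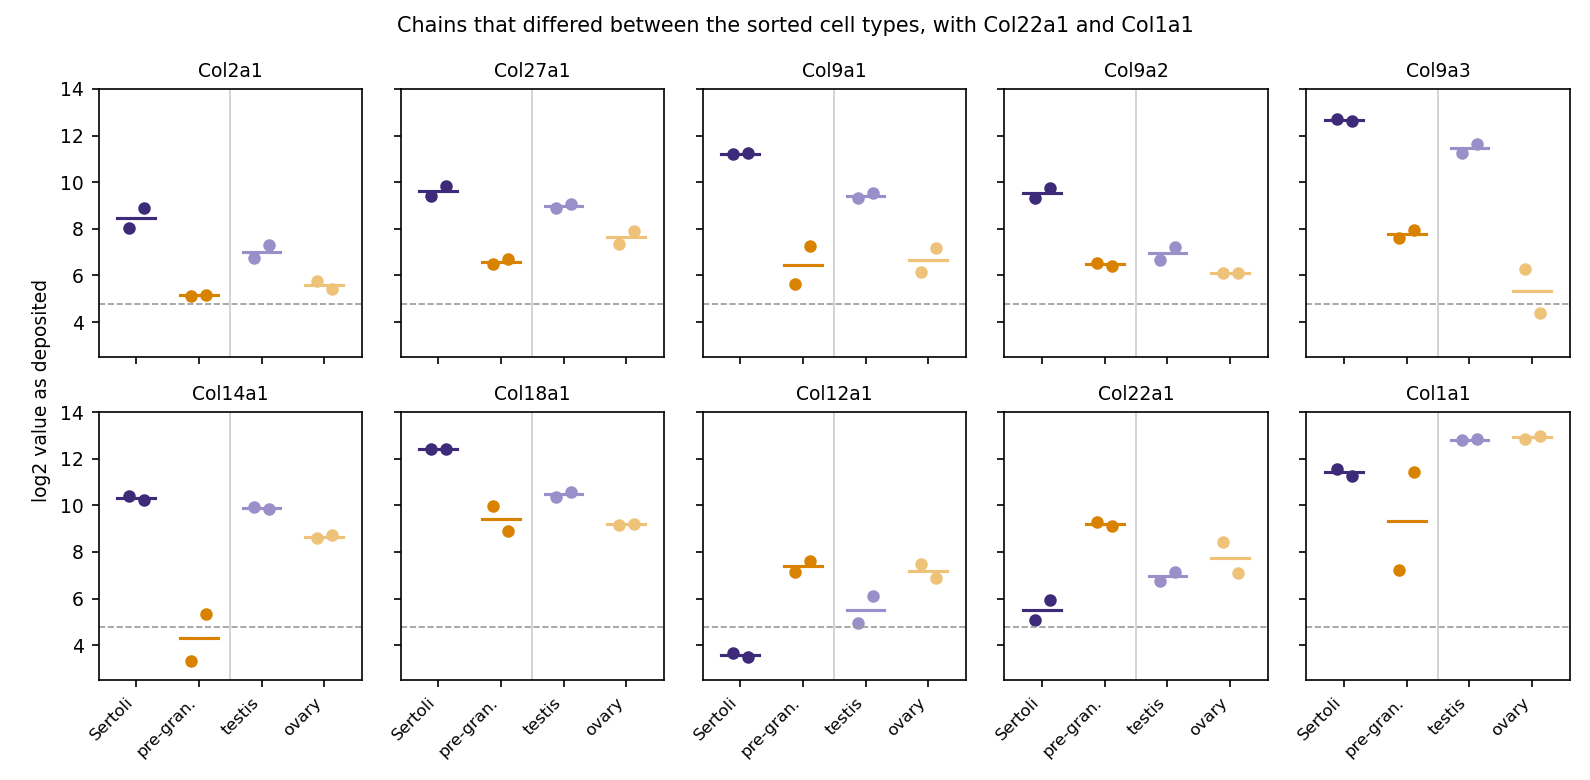
Log2 values of single arrays (points) and group means (lines) for the 8 genes called between the sorted cell types, with Col22a1 and Col1a1. The dashed line is the background level of 4.78. The 7 chains higher in Sertoli cells have both Sertoli points above both pre-granulosa points, Col12a1 lies under the dashed line in Sertoli cells, and the 2 pre-granulosa points of Col1a1 are far apart.

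Among basement membrane chains only Col18a1 was called between the sorted cells. Col18a1, whose cleaved end is endostatin, read 12.44 and 12.43 in Sertoli cells, 9.97 and 8.89 in pre-granulosa samples, 10.36 and 10.58 in testes and 9.16 and 9.22 in ovaries. Sertoli cells were 8.02-fold higher (3.0 ± 0.34, adjusted p = 0.00706), and the second probe set gave 2.95 ± 0.24 (0.00252). Without pre-granulosa replicate 1 these differences were 3.54 (adjusted p = 0.00317) and 3.22 (0.00419). Col15a1, the related chain, read 6.36 and 8.39 in Sertoli cells, 5.54 and 5.06 in pre-granulosa samples, 7.69 and 7.83 in testes and 7.13 and 7.66 in ovaries. Its Sertoli replicates were far apart, and the difference of 2.08 ± 0.63 was not called (adjusted p = 0.136). Of 6 endothelial markers 0 were called between the sorted cells by limma, with 1 at an unadjusted p under 0.05 (4073 of all 18193 genes were). The summed level of these markers was 421 and 516 in Sertoli cells and 224 and 475 in pre-granulosa cells.

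Type IV chains combine as Col4a1 with Col4a2, or as trimers of Col4a3, Col4a4 and Col4a5 or of Col4a5 and Col4a6. Col4a1 read 10.62 and 10.59 in Sertoli cells, 10.82 and 9.87 in pre-granulosa samples, 12.10 and 12.10 in testes and 11.08 and 11.31 in ovaries. Col4a2 read 11.16 and 10.83 in Sertoli cells, 10.87 and 10.40 in pre-granulosa samples, 11.33 and 11.60 in testes and 10.87 and 11.12 in ovaries. Both were far above background in all 8 arrays, and neither was called between the sorted cells (0.26 ± 0.30 and 0.36 ± 0.23) or between testis and ovary (0.91 ± 0.30 and 0.47 ± 0.23). The 6 type IV genes lie in 3 neighbouring pairs. The windows of Col4a1 and Col4a2 on chromosome 8 point in opposite directions and share 78 bases, which are shown in capitals.
Col4a1, chr8:11312777-11313076, minus strand: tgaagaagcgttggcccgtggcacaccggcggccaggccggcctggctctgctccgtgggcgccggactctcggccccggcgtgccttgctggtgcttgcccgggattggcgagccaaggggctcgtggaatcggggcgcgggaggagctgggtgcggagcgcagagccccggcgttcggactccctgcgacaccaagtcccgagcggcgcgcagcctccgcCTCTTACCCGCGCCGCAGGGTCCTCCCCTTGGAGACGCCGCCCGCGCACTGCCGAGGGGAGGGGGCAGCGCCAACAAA
Col4a2, chr8:11312555-11312854, plus strand: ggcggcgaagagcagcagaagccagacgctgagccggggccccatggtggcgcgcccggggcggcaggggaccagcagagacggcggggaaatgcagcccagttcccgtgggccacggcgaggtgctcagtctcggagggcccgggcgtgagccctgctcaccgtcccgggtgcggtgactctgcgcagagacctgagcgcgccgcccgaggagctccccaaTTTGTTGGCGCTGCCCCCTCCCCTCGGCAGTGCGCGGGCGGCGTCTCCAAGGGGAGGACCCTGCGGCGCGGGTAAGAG
The members of the other pairs had unlike values. Col4a4 read 6.18 and 5.04 in Sertoli cells, 5.41 and 4.19 in pre-granulosa samples, 8.92 and 8.69 in testes and 6.73 and 4.92 in ovaries, with the testis arrays highest by far. Its neighbour Col4a3 stayed close to background in all 4 groups, from 4.52 ± 0.05 in pre-granulosa cells to 5.27 ± 0.20 in testes (mean ± SD, n = 2). Col4a5 read 6.35 and 7.13 in Sertoli cells, 6.36 and 9.30 in pre-granulosa samples, 10.56 and 10.50 in testes and 10.36 and 10.45 in ovaries. Its neighbour Col4a6 read 4.95 and 5.29 in Sertoli cells, 6.07 and 5.81 in pre-granulosa samples, 6.60 and 7.28 in testes and 8.50 and 8.45 in ovaries. Col4a6 had its highest arrays in ovaries while Col4a5 ran from 10.36 to 10.56 over the 4 gonad arrays, and neither was called between the sorted cells (-1.09 ± 0.87 for Col4a5 and -0.81 ± 0.26 for Col4a6). Without pre-granulosa replicate 1 a dimmer Col4a5 probe set was called lower in Sertoli cells (-1.49, adjusted p = 0.00789, against -1.19 and 0.0332 with it).

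**Figure D3:**
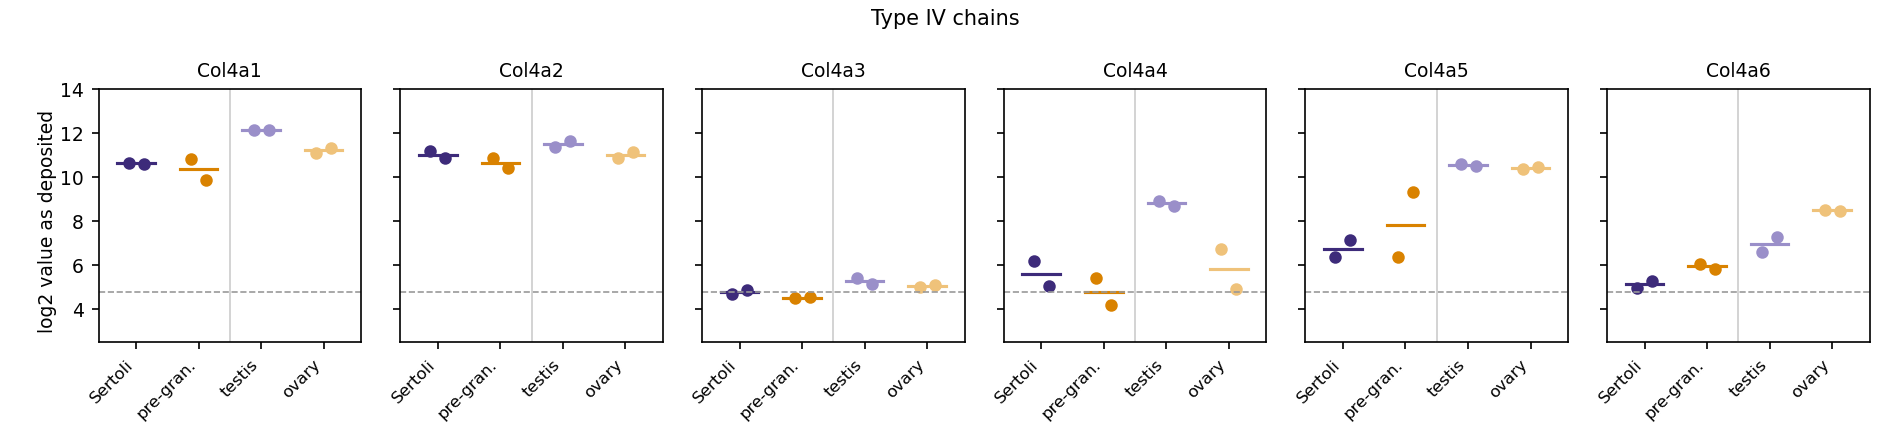
Log2 values of single arrays (points) and group means (lines) for the 6 type IV chains, with the background level of 4.78 dashed. Col4a1 and Col4a2 are high in every group, Col4a4 is highest in testes, both Col4a5 points of Sertoli cells lie under those of the gonads, and Col4a6 is highest in ovaries.

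The chains of interstitial fibrils were not called between the sorted cell types. Col1a1 and Col1a2 form type I collagen, the main fibril of connective tissue. Col1a1 read 11.55 and 11.27 in Sertoli cells, 7.23 and 11.42 in pre-granulosa samples, 12.79 and 12.85 in testes and 12.86 and 12.99 in ovaries. The pre-granulosa replicates lay far apart, and the difference of 2.09 ± 1.20 has a wide error (adjusted p = 0.435), and without replicate 1 it was -0.01 (0.984). Nr2f2, an interstitial marker, parted the same 2 arrays, at 5.80 and 9.82. The other interstitial markers measured differed less between these arrays. Pdgfra read 7.50 in replicate 1 and 7.64 in replicate 2. Lower in replicate 2 were Tcf21 (5.43 and 5.28), Nr2f1 (7.44 and 7.40), Gli1 (5.39 and 5.28) and Ptch1 (12.17 and 12.08). The unlogged sum over all measured interstitial markers did not part the 2 arrays to the degree of Nr2f2, at 5117 and 5676. Replicate 1 is also the array that stood apart in RNA quality. The part of interstitial cells in the Col1a1 values was not tested. Col1a2 read 9.23 and 8.37 in Sertoli cells and 7.10 and 8.66 in pre-granulosa cells, a difference of 0.92 ± 0.52. Col3a1, the type III chain of soft tissues, differed by -0.33 ± 0.21, and by 0.29 ± 0.97 on its second probe set. The type V chains, which set fibril width, had differences of -1.04 ± 0.31 for Col5a1 and -1.39 ± 0.53 for Col5a2, neither called, and Col5a3 was at background in both cell types. Col24a1, a minor fibrillar chain, was at background in Sertoli cells (3.58 and 4.24) and pre-granulosa cells (3.53 and 3.73) and read 5.59 and 6.13 in testes and 7.57 and 6.24 in ovaries.

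None of the 14 other chains was called between the sorted cells by limma. An unadjusted p under 0.05 was found for 4 of the 14, against 4073 of all 18193 genes. Col8a2, a short chain of hexagonal lattices, read 5.45 and 6.63 in Sertoli cells and 3.70 and 4.15 in pre-granulosa cells, where it was at background, with 6.63 and 6.75 in testes and 6.74 and 5.99 in ovaries (at least 2.39-fold between the sorted cells, adjusted p = 0.0481). Col26a1, a chain first described from testis and ovary, read 6.40 and 5.82 in Sertoli cells, 7.77 and 7.26 in pre-granulosa samples, 7.91 and 8.38 in testes and 8.66 and 8.89 in ovaries (-1.41 ± 0.29, 0.0496). In both genes the 2 sorted cell types did not overlap, as was so for 43.3% of all genes, and both missed the threshold. Col6a1 and Col6a2, neighbours on chromosome 10 and partners in type VI filaments, had differences of -1.35 ± 0.33 and -0.91 ± 0.45. The transmembrane chain Col25a1 had 1.58 ± 0.38. Col6a5, of type VI, and Col17a1, a transmembrane chain of hemidesmosomes, were at background in both cell types. The rest lay between -0.18 and 0.74, namely the type VI chains Col6a3 and Col6a4, Col7a1 of anchoring fibrils, Col8a1, Col10a1 of hypertrophic cartilage, and the transmembrane chains Col13a1 and Col23a1.

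The same question asked of whole organs gave fewer calls, with Col9a3 in front. Between testis and ovary 0 of 42 collagen genes were called by limma on their brightest probe sets, against 0.352% of all genes. An unadjusted p under 0.05 was found for 13 of the 42, against 2090 of all 18193 genes. Of the 82 probe sets 1 was called (1.22%, against 0.215% of all probe sets), the second one of Col9a3, 3.20 ± 0.18 higher in testes (adjusted p = 0.00296). The brightest Col9a3 probe set had a larger difference with a larger error (6.12 ± 0.58, 0.0127). The 8 genes called between the sorted cells all had the same sign between the organs, and for all 8 the testis and ovary arrays did not overlap, as was so for 55.2% of all genes. Col9a1 differed by 2.78 ± 0.57 (adjusted p = 0.142), Col2a1 by 1.43 ± 0.32 (0.184) and Col12a1 by -1.67 ± 0.41 (0.222). For 7 of the 8 the size was smaller between the organs than between the sorted cells, Col9a3 on its brightest probe set being the exception. The 8 were picked by their calls between the sorted cells, which favours a larger size there. Whether the XY minus XX difference itself differed between sorted cells and organs was tested as an interaction, and 0 of 42 genes were called by limma, as were 0% of all genes. Of the 42, 11 had an unadjusted p under 0.05, against 2367 of all 18193 genes. The lowest adjusted p among collagen probe sets was 0.0445, for the second one of Col9a3 (2.42 ± 0.26).

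Chains with no call between the organs included some with wide differences. Col4a4 was 7.88-fold apart (2.98 ± 0.71, adjusted p = 0.206), with ovary replicates far apart, and its second probe set gave 1.99 ± 0.22 (0.0218). Col25a1, a transmembrane chain, read 10.32 and 9.99 in testes and 8.53 and 8.51 in ovaries (1.64 ± 0.38, 0.194). On the ovarian side, Col4a6 had a difference of -1.54 ± 0.26 (0.0850), and Col24a1 one of -1.05 ± 0.47 (0.598). Col23a1, another transmembrane chain, read 6.88 and 7.23 in testes and 6.50 and 6.63 in ovaries, against 6.02 and 6.24 in Sertoli and 5.81 and 5.90 in pre-granulosa cells. The chains of types I and III had small differences, at -0.10 ± 1.20 for Col1a1, 0.44 ± 0.52 for Col1a2 and 0.18 ± 0.21 for Col3a1.

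**Figure D4:**
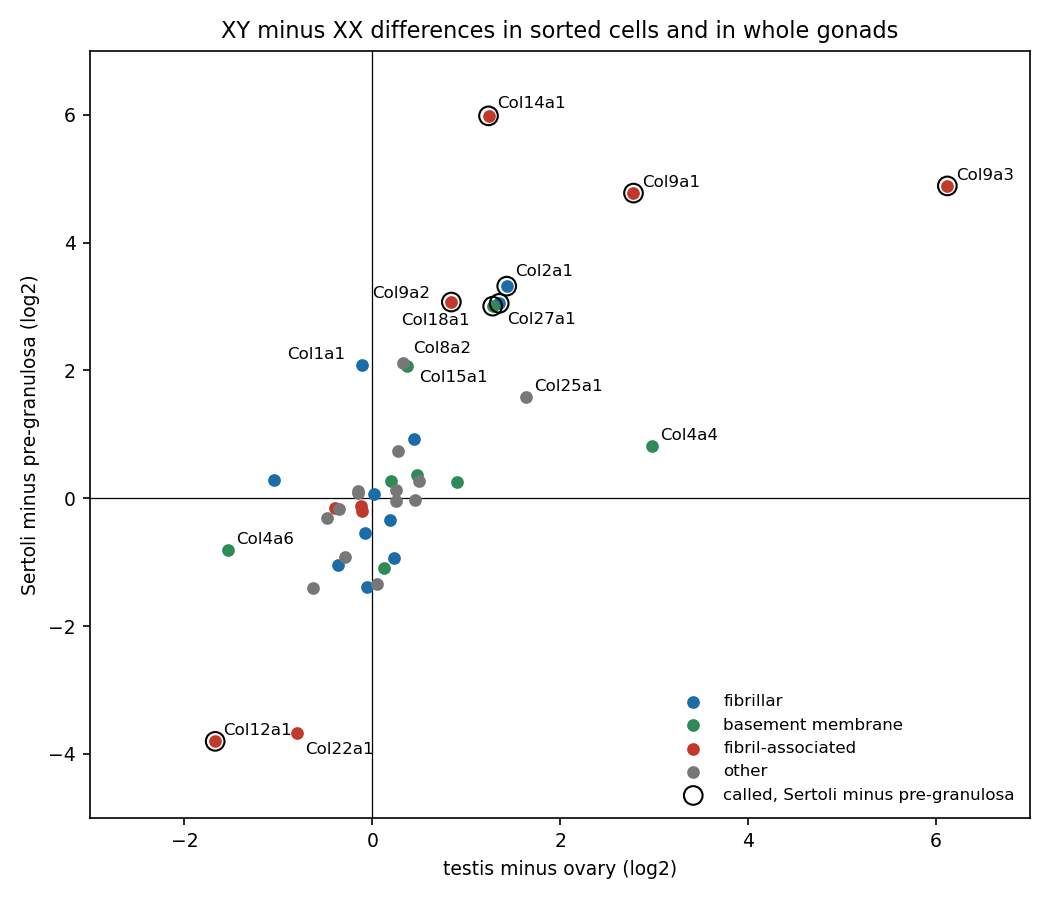
Each point is a collagen gene, placed by its testis minus ovary difference (horizontal) and its Sertoli minus pre-granulosa difference (vertical), both in log2 units; rings mark the 8 genes called between the sorted cells. Col14a1, Col9a1, Col9a3, Col2a1, Col9a2, Col27a1 and Col18a1 lie in the upper right and Col12a1 in the lower left, while Col4a4 lies far right with a small vertical value.

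Sorted cells were then set against the whole gonad of the same sex, which holds the other cell types as well. Chains of interstitial fibrils, of filaments and of the plasma membrane were among those lower in the sorted cells. Col3a1, Col6a3, Col13a1 and Col25a1 were called lower in both sorted cell types on their brightest probe sets, which second probe sets of Col3a1 and Col25a1 did not repeat as calls. For Col3a1 the difference was -2.99 ± 0.20 for Sertoli minus testis and -2.49 ± 0.20 for pre-granulosa minus ovary. The sorted-cell and gonad arrays lie on 2 different distributions, with median levels of 5.58 and 5.97, and are nearly identical within each set, so each difference is given less the difference of the array medians and its p tests that value. Of the 42 genes 6 were called in Sertoli minus testis (14.3%, against 6.87% of all genes), 2 higher (2.47% of all genes) and 4 lower (4.4%). In pre-granulosa minus ovary 6 of 42 were called, all lower (14.3%, against 5.4% of all genes and 4.11% called lower). By probe set, 15 of 82 were called in Sertoli minus testis (18.3%, against 6.7% of all probe sets) and 9 of 82 in pre-granulosa minus ovary (11.0%, against 5.51%). The median over the 42 genes was -0.61 for Sertoli minus testis and -0.48 for pre-granulosa minus ovary, against 0.10 and -0.01 over all genes. These are fitted differences, and 8 of the 42 genes had a group at background. In both comparisons 25 of the 42 lay below 0, and by class 9 of 11 fibrillar, 5 of 8 basement membrane, 2 of 9 fibril-associated and 9 of 14 other genes did.

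Col3a1 read 8.80 and 8.75 in Sertoli cells and 9.24 and 8.98 in pre-granulosa cells against 12.05 and 12.27 in testes and 11.75 and 12.21 in ovaries. Col6a3, the long chain of type VI filaments, read 6.27 and 5.0 in Sertoli cells and 4.30 and 5.50 in pre-granulosa cells against 9.63 and 9.72 in testes and 9.34 and 9.47 in ovaries. The second Col3a1 probe set had -4.22 for Sertoli minus testis and -3.75 for pre-granulosa minus ovary, with a wider error and no call (adjusted p = 0.0278 and 0.0418). On the brightest probe sets of both genes all 4 sorted-cell arrays lay far under all 4 gonad arrays, 12.5-fold for Col6a3 in Sertoli cells (adjusted p = 0.00726) and 17.5-fold in pre-granulosa cells (0.00586). Its partners had smaller differences, with -1.16 for Sertoli minus testis and 0.22 for pre-granulosa minus ovary for Col6a1 and -1.09 for Sertoli minus testis and -0.49 for pre-granulosa minus ovary for Col6a2, none called. Col13a1, a transmembrane collagen, read 5.28 and 5.97 in Sertoli cells and 5.64 and 5.65 in pre-granulosa cells against 9.18 and 9.17 in testes and 8.62 and 8.82 in ovaries. Col25a1 read 7.15 and 6.68 in Sertoli cells and 4.77 and 5.90 in pre-granulosa cells, under both gonads. For these 2 genes the differences were -3.16 for Sertoli minus testis and -2.69 for pre-granulosa minus ovary (adjusted p = 0.00162 and 0.00257), and -2.84 for Sertoli minus testis and -2.80 for pre-granulosa minus ovary (0.00644 and 0.00726). The second Col25a1 probe set did not follow: it read 6.04 and 6.13 in Sertoli cells and 6.35 and 6.20 in pre-granulosa cells against 6.45 and 6.28 in testes and 6.53 and 6.54 in ovaries, with 0.11 for Sertoli minus testis and 0.12 for pre-granulosa minus ovary (0.570 and 0.557).

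Type I chains had large differences that were called only on second probe sets. Col1a2 read 12.07 and 11.98 in testes and 11.48 and 11.69 in ovaries, and its brightest probe set gave -2.83 for Sertoli minus testis and -3.32 for pre-granulosa minus ovary (adjusted p = 0.0154 and 0.0108). Its second probe set was called in both, with -2.48 for Sertoli minus testis and -3.24 for pre-granulosa minus ovary (0.00525 and 0.00293), while a dimmer one had the opposite sign and no call, with 0.80 for Sertoli minus testis and 0.81 for pre-granulosa minus ovary. For Col1a1 the second probe set was called in pre-granulosa minus ovary (-4.13 ± 0.57, 0.00743), and without pre-granulosa replicate 1 it gave -3.20 (0.00441). Col5a1 read 8.09 and 8.07 in Sertoli cells, 9.57 and 8.67 in pre-granulosa samples, 9.44 and 9.84 in testes and 9.99 and 10.03 in ovaries on its brightest probe set. Second probe sets of Col5a1 (-2.31, 0.00501) and Col4a4 (-2.13, 0.00325) were called lower in Sertoli cells than in testes. Col4a6 was called lower in pre-granulosa cells than in ovaries (-2.16 ± 0.26, 0.00553), and its second probe set was called there too (-1.90) and in Sertoli minus testis, where it was at background in Sertoli cells (at least 2.21-fold lower). Col14a1 was lower in pre-granulosa cells than in ovaries (-3.94 ± 0.59, 0.00915), with no call on its second probe set (-1.72, 0.0111) or on a dim one, and differed by 0.82 ± 0.59 (0.324) between Sertoli cells and testes.

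Chains called higher in the sorted cells were found in Sertoli minus testis only. Col9a2 was 7.97-fold higher in Sertoli cells than in testes (3.0 ± 0.25, adjusted p = 0.00204) and Col18a1 5.13-fold (2.36 ± 0.33, 0.00720). Second probe sets of Col9a3 (2.98, 0.00110) and Col27a1 (1.79, 0.00446) were called higher as well. So were the second probe set of Col9a1 (at least 1.88-fold, 0.00824) and a dimmer one of Col20a1 (at least 3.16-fold, 0.00944), both at background in testes. On the brightest Col20a1 probe set, values were 7.32 and 7.16 in Sertoli cells, 7.77 and 7.10 in pre-granulosa samples, 6.89 and 6.81 in testes and 6.99 and 6.95 in ovaries. Col20a1 had similar differences in both sorted cell types. The dimmer probe set gave 1.70 for Sertoli minus testis and 1.57 for pre-granulosa minus ovary (not called, adjusted p = 0.0131). The brightest gave 0.78 and 0.85, neither called. In pre-granulosa minus ovary 0 collagen genes were called higher, with values of 1.81 for Col22a1 (0.0481) and 2.83 for Col9a3 (0.0225). For Col9a3 the second probe set gave 0.54 there, so these 2 probe sets disagree in size. Without pre-granulosa replicate 1, pre-granulosa minus ovary kept Col3a1 (-2.61, 0.00516), Col13a1 (-2.68, 0.00794), Col14a1 (-2.93, 0.00299) and Col25a1 (-2.23, 0.00796), while Col6a3 (-3.51, 0.0124) and Col4a6 (-2.28, 0.0126) missed the threshold.

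**Figure D5:**
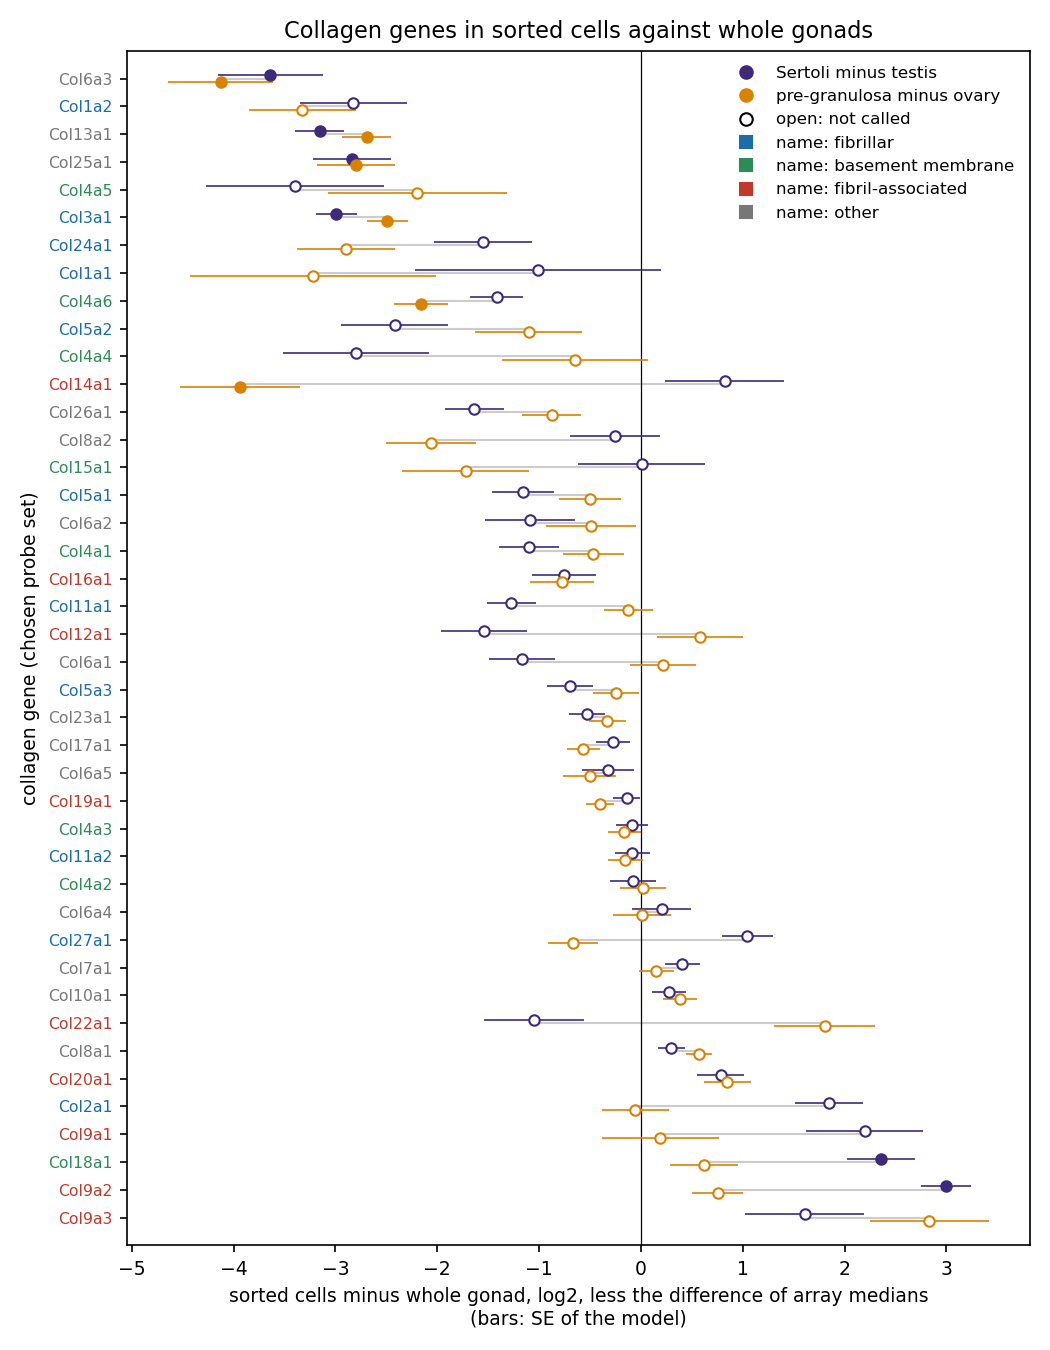
Differences of the 42 collagen genes between sorted cells and the whole gonad of the same sex (log2, less the difference of array medians; bars are model standard errors), ordered by the mean of both. Filled points were called at an adjusted p of 0.01. Col6a3, Col13a1, Col25a1 and Col3a1 lie left of 0 in both comparisons, and Col9a2 and Col18a1 lie right of 0 in Sertoli minus testis.

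Markers of other cells were read in the same comparisons. Of 6 interstitial markers measured, 3 were lower in Sertoli cells than in testes and 2 were lower in pre-granulosa cells than in ovaries. Over all genes, 4.4% and 4.11% were called lower in these comparisons. Pdgfra, a receptor of mesenchymal cells, read 7.24 and 6.55 in Sertoli cells and 7.50 and 7.64 in pre-granulosa cells against 12.41 and 12.37 in testes and 11.17 and 11.76 in ovaries. The summed level of the list was 9895 and 9829 in Sertoli cells, 5117 and 5676 in pre-granulosa samples, 25481 and 25126 in testes and 11307 and 12776 in ovaries, and 0 of the 6 were at background in any group. Perivascular markers were lower for 2 of 5 in each comparison, with sums of 656 and 576 in Sertoli cells and 625 and 551 in pre-granulosa cells against 2874 and 2825 in testes and 1659 and 1759 in ovaries. Endothelial markers were lower for 1 of 6 in each, Kdr, with sums of 421 and 516 in Sertoli cells and 224 and 475 in pre-granulosa cells against 1666 and 1838 in testes and 1854 and 1700 in ovaries, and 1 of the 6 was at background in each sorted cell type. Fetal Leydig markers were lower for 1 of 4 in Sertoli cells than in testes, with sums of 1826 and 3115 against 11997 and 10196, and for 0 of 4 in pre-granulosa cells than in ovaries, with sums of 900 and 634 against 746 and 676. Erythroid markers were lower for 2 of 3 in each comparison, and of 3 mesonephric tubule markers Cdh16 was higher in each. Between the sorted cells, fetal Leydig markers summed to 1826 and 3115 in Sertoli cells and 900 and 634 in pre-granulosa cells, with 0 of 4 called and 0 at background. Macrophage markers summed to 815 and 3366 in Sertoli cells and 178 and 158 in pre-granulosa cells, with 1 of 6 called higher in Sertoli cells (C1qb) and 2 of the 6 at background in pre-granulosa cells. They summed to 671 and 640 in testes and 888 and 877 in ovaries. Against the gonads 0 of the 6 were called by limma. All 6 lay above 0 in Sertoli minus testis and below 0 in pre-granulosa minus ovary. The part of these cells in the collagen differences was not tested.

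Genes that act on collagen were read beside the chains. Of 29 measured genes of collagen folding, cleavage and cross-linking, 1 was higher in Sertoli than in pre-granulosa cells (3.45%, against 1.62% of all genes). It was Pcolce, which aids removal of the procollagen end (12.34 and 12.13 in Sertoli cells and 10.87 and 10.57 in pre-granulosa cells, 1.52 ± 0.17, adjusted p = 0.00677). Between testis and ovary 0 of the 29 were called by limma, against 0.352% of all genes. Of the 29, 5 had an unadjusted p under 0.05, against 2090 of all 18193 genes. Against the gonads, 3 of 29 were lower in Sertoli cells (10.3%, against 4.4% of all genes) and 4 of 29 in pre-granulosa cells (13.8%, against 4.11%). Lox, the enzyme that cross-links collagen, read 4.25 and 3.94 in Sertoli cells and 3.81 and 4.21 in pre-granulosa cells, at background, against 10.29 and 10.29 in testes and 8.77 and 9.22 in ovaries. Its level was lower by at least 34.5-fold in Sertoli cells than in testes (adjusted p = 0.000519) and by at least 14.2-fold in pre-granulosa cells than in ovaries (0.000803). Colgalt2, a sugar transferase for collagen, was at background in the sorted cells and lower in both comparisons, at least 1.83-fold and 2.16-fold. Adamts3, which cuts procollagen, was lower in Sertoli cells than in testes, by at least 3.13-fold. Serpinh1, a collagen chaperone, was lower in pre-granulosa cells than in ovaries (-1.94 ± 0.25, 0.00620), as was Loxl1, a relative of Lox (at least 2.55-fold, 0.00784). Abundant members were not called in either: P4hb, a subunit of prolyl hydroxylase (-0.48 and -0.46), Sparc, a collagen-binding protein (0.47 and -0.29), and the isomerase Ppib (0.09 and -0.06).

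Of 8 collagen receptors measured, 0 were called by limma between the sorted cells or between the organs, against 2.67% and 0.352% of all genes. An unadjusted p under 0.05 was found for 3 and 0 of the 8, against 4073 and 2090 of all 18193 genes. Against the gonads, 1 of the 8 was called lower in each comparison (12.5%, against 4.4% and 4.11% of all genes). Ddr2, a receptor for fibrillar collagen, was lower in both sorted cell types than in the gonads (-2.26 ± 0.31 for Sertoli minus testis and -2.33 ± 0.31 for pre-granulosa minus ovary, adjusted p = 0.00644 and 0.00656). Its relative Ddr1, the subunit Itgb1 of collagen-binding integrins and its partner Itga1 were not called, at 0.67, -0.37 and -1.47 in Sertoli minus testis and 0.05, -0.96 and -1.94 in pre-granulosa minus ovary. Of 7 collagen-binding proteoglycans, 2 were lower in Sertoli cells than in testes, Bgn (-2.18 ± 0.31) and Ogn (at least 2.96-fold), and 2 in pre-granulosa cells than in ovaries, Lum (at least 1.37-fold) and Ogn (at least 2.15-fold). That was 28.6% of the list in each, against 4.4% and 4.11% of all genes. Decorin (Dcn) and fibromodulin (Fmod) had differences of -2.13 and -2.52 in Sertoli minus testis and -2.86 and -2.32 in pre-granulosa minus ovary, and Prelp of 1.29 and 0.53, none called.

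These calls rest on limma with 1 mean per group over the 8 arrays. For Sertoli minus pre-granulosa the 8 called genes became 5 when pre-granulosa replicate 1 was left out, 8 without replicate 2 of that group, 4 without the first Sertoli array, 0 without the second, 2 without either ovary array and 1 without either testis array. For the sorted minus gonad comparisons the 6 and 6 calls became 0 and 0 without either testis array, 3 and 0 without either ovary array, 4 and 4 without the first Sertoli array, 2 and 4 without the second, 13 and 4 without pre-granulosa replicate 1, and 13 and 10 without pre-granulosa replicate 2. The 1 probe set called between testis and ovary was not called without any single Sertoli, testis or ovary array, and was called without either pre-granulosa array. With the 4 sorted arrays alone 0 collagen genes and 0 collagen probe sets were called between the sorted cells, as were 0 of all 45037 probe sets. The number of calls over all probe sets also changed with the array left out.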

How the data were processed

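Log2 signals were deposited by the authors in a single table of 45101 rows, made with RMA per the submitters' processing notes, and 64 array controls were left out. Probe sets were named through the platform annotation given with the data, in which 34945 of 45037 had a single gene symbol, 932 several and 9160 none. A mean per group was fitted over the 8 arrays with limma 3.58.1 in R 4.3.3, moderated by eBayes (4 residual degrees of freedom before moderation), with Benjamini-Hochberg adjustment over all 45037 probe sets and calls at an adjusted p of 0.01. This matches the false discovery rate of 1% in the series text. For sorted cells against gonads the arrays were first centred on their medians. A group with all arrays at or under the background level of 4.78 gives a bound only.

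The members and lists were chosen with earlier results of these data known. Array values are given for genes with a called probe set, the 3 genes of each class with the largest difference between Sertoli and pre-granulosa cells or between testis and ovary, and Col1a1, Col1a2, Col3a1, Col4a1 and Col4a2. Of the other lists, called members and up to 3 bright ones are named. The fit was tried on simulated data in which all groups shared 1 variance per probe set. In these data the spread over all probe sets (root mean square) ran from 0.198 in testes to 0.531 in pre-granulosa cells. The simulation therefore does not test the fit at the unequal spread of these groups. The labels do not say that replicate numbers pair samples, so the numbers were not used to pair them. Deviations of replicate 1 had correlations from -0.16 to 0.05 between groups, which cannot exclude a pairing. Alternatives were another normalization or centring, moderation, weights per group, a filter on dim probe sets, fewer arrays, a replicate block, the mean of a gene's probe sets and a threshold of 0.05. Protein sequences were not used here.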

Additional observations from a re-analysis of the deposited data

How the results depend on the processing

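No called collagen probe set changed direction under any alternative or without any array: of 648 such values 369 were still called, 279 kept the direction without a call and 0 reversed. Much of this was fixed in advance. Changes of moderation, the filter and the use of only the compared arrays leave a difference as it was and alter its p. For every called probe set the arrays of the compared groups did not overlap, so leaving out 1 array could not reverse it. The numbers of calls did change, and the cause was not tested beyond the smaller samples of some fits. Counts are given as probe sets, then genes. For Sertoli minus pre-granulosa (11 and 8) they were 0 and 0 with no moderation, 0 and 0 with only the arrays of the compared groups, 3 and 1 with a weight per group, and 17 probe sets at an adjusted p of 0.05. Of all 45037 probe sets, 13 were called with no moderation, 0 with only the compared arrays and 264 with a weight per group. For testis minus ovary (1 and 0) they were 2 and 1 with a filter on dim probe sets, 2 and 1 with an intensity trend, 3 and 1 with a weight per group and 3 and 1 at 0.05. No moderation and only the compared arrays gave 0 collagen probe sets, against 0 and 80 of all 45037. The mean of a gene's probe sets gave 1 gene. For Sertoli minus testis (15 and 6) they were 3 and 1 with no moderation, 27 and 12 with a weight per group, 42 and 20 at 0.05, and 15 genes with the mean of probe sets. Of all 45037 probe sets, 690 were called there with no moderation and 5711 with a weight per group. For pre-granulosa minus ovary (9 and 6) they were 1 and 0 with no moderation, 0 and 0 with only the compared arrays, 24 and 13 at 0.05, and 14 probe sets with an intensity trend. Of all 45037 probe sets, 294 were called there with no moderation and 0 with only the compared arrays. The interaction gave 1 probe set at 0.05. The labels do not say whether replicate numbers pair the samples. A replicate block gave 6 and 3 for Sertoli minus pre-granulosa and 6 and 3 for Sertoli minus testis. It gave 4 and 2 for pre-granulosa minus ovary. Leaving out 1 array at a time gave 1 to 13 probe sets and 0 to 8 genes for Sertoli minus pre-granulosa, 0 to 1 and 0 to 0 for testis minus ovary, 0 to 27 and 0 to 13 for Sertoli minus testis, and 0 to 17 and 0 to 10 for pre-granulosa minus ovary. A lone remaining array is assumed to vary like the other groups. The number of arrays, 2 per group, limits every call.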
